A study of Canis lupus familiaris with 77 samples.

Results

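Liver and kidney, the main organs followed for drug injury, were compared over all measured miRNAs in untreated dogs. The 10 libraries compared, 5 of liver and 5 of kidney, were chosen by their tissue label out of 76 libraries of 16 tissues. All came from untreated male beagles of 10 months of age, perfused with buffered saline before the organs were taken, and no sample carried a treatment, transgene or cell line. Total RNA of tissue homogenates was sequenced as small RNA (miR-seq), so each value is a mean over all cells of the piece of organ taken, the study calls the kidney material whole kidney, and the lobe of the liver was not given in the sources used here. The study took its organs from 5 dogs, but the labels give no dog number and the samples of the organs could not be matched by animal. The p-values therefore measure the spread between these samples.

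MicroRNAs (miRNAs) are short RNAs cut from hairpin precursors, and each loads into Argonaute and lowers the output of mRNAs that pair with its seed. A hairpin can give a mature miRNA from its 5p arm, its 3p arm or both. The liver is known for a single dominant hepatocyte miRNA, miR-122, and for miR-192, which it shares with the kidney and the gut. The kidney is built from intermediate mesoderm of the trunk, and its tubules carry epithelial miRNAs of the miR-200 family, miR-204 and members of the miR-30 family. The miR-10 and miR-196 hairpins lie inside the HOX clusters, whose genes are switched on by position along the body axis.

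The libraries held 614717 to 2594852 reads on miRNAs in liver and 1090108 to 6684616 in kidney. A level is given in RPM, reads of a miRNA per 1000000 reads on miRNAs, and 3 reads, taken here as the limit of detection of a library, averaged 2.71 RPM over the liver libraries and 1.27 RPM over the kidney libraries. This limit and the intervals on read ratios cover counting error only. No pair of libraries of 1 organ agreed within sampling noise, with a chi-square per degree of freedom of at least 37.5 in all 20 pairs. Across all 528 miRNAs with a read in either organ, the Spearman correlation of RPM averaged 0.932 in the 10 liver pairs (0.913 to 0.946), 0.932 in the 10 kidney pairs (0.894 to 0.962) and 0.847 in the 25 pairs of a liver and a kidney library (0.815 to 0.881). These are descriptions across miRNAs, which are not independent of each other.

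The kidney libraries fell less closely together than the liver libraries. The median SD over replicates of the scaled log2 level was 0.32 in liver and 0.45 in kidney, and the SD was larger in kidney for 175 of the 250 miRNAs that entered the test. Among these 250, kidney replicates 1 and 2 correlated with each other at 0.976 and replicates 3, 4 and 5 at 0.980 to 0.982, against 0.899 to 0.955 between the former and the latter. Replicates 1 and 2 both lay above the other 3 for 71 of the 250 miRNAs and both below them for 78. This split was picked after the values were seen, so these figures describe it and do not test it. Fits given below on either part of the kidney libraries reuse the same libraries and are no independent support. The study notes low RNA integrity for a subset of kidney samples, whose percent of mapped reads it found similar to that of kidney samples of high integrity. Integrity values were not used here, and their part in these values was not tested.

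The reads were spread differently over miRNAs in the organs. In kidney, cfa-miR-10b took 34.3, 29.8, 47.9, 44.6 and 54.8% of the reads in the 5 libraries. In liver the most abundant miRNA was cfa-miR-192, with 17.6, 22.2, 18.8, 17.6 and 16.0%. All 5 kidney libraries gave a larger share to their leading miRNA than any liver library (exact permutation test, two-sided, p = 0.00794, the smallest that 5 against 5 can give, 0.0143 after Benjamini-Hochberg adjustment over 9 measures per library). The 10 most abundant miRNAs held 63.4 to 68.7% of the reads in liver and 76.8 to 86.7% in kidney, again without overlap (exact permutation p = 0.00794). Between 23 and 27 miRNAs were needed to reach 90% of the reads of a liver library, and between 14 and 21 in kidney.

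**Figure D1:**
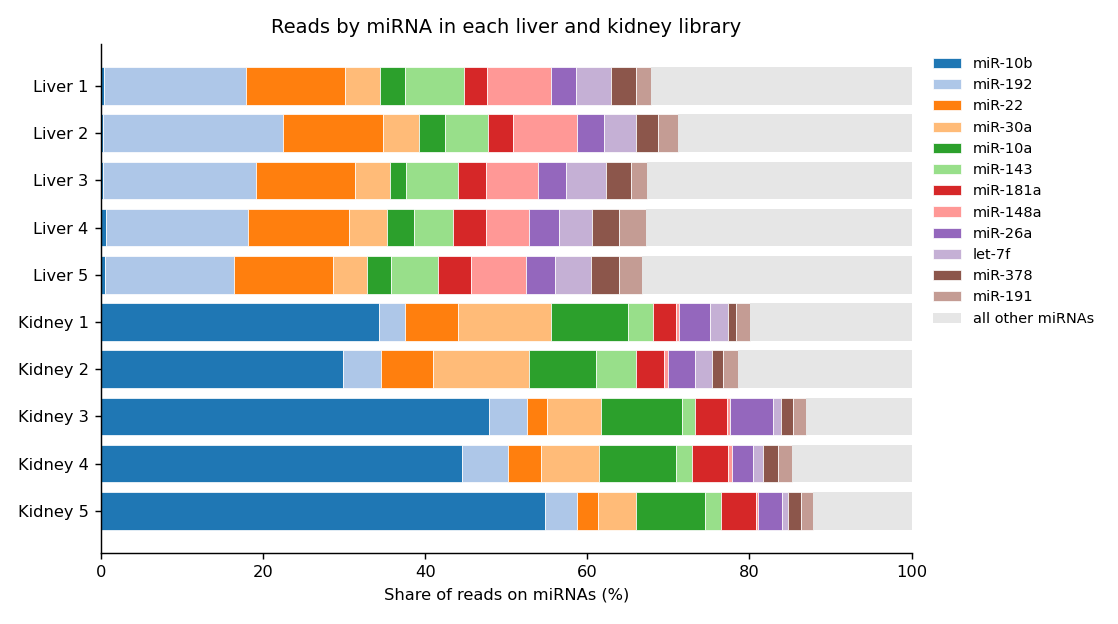
Share of the reads on miRNAs (%, x axis) in each of the 5 liver and 5 kidney libraries (y axis), split over the 12 miRNAs that were among the 10 most abundant of either organ, with all other miRNAs in grey. The blue block of cfa-miR-10b spans 29.8 to 54.8% of the kidney libraries and is barely visible in liver, where cfa-miR-192 and cfa-miR-22 lead.

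Behind the leading miRNAs the organs shared much of their abundant set, with 8 miRNAs among the 10 highest of both. In liver the order by mean RPM was cfa-miR-192, cfa-miR-22, cfa-miR-148a, cfa-miR-143, cfa-miR-30a, cfa-let-7f, cfa-miR-26a, cfa-miR-181a, cfa-miR-378 and cfa-miR-10a. In kidney it was cfa-miR-10b, cfa-miR-10a, cfa-miR-30a, cfa-miR-22, cfa-miR-192, cfa-miR-181a, cfa-miR-26a, cfa-miR-143, cfa-miR-191 and cfa-let-7f. In these lists cfa-miR-148a and cfa-miR-378 stood among the 10 highest of liver alone, and cfa-miR-10b and cfa-miR-191 of kidney alone. The level of cfa-miR-22 hardly varied in liver, at 122389, 123543, 122630, 124647 and 122028 RPM, and was lower in every kidney library, at 65745, 63756, 25514, 40728 and 25653 RPM (log2 fold change 0.93 ± 0.19 SE, edgeR adjusted p = 0.00134). The neighbours in rank in kidney, cfa-miR-22 at 44279 ± 19696 RPM and cfa-miR-192 at 44219 ± 9137 (SD, n = 5), did not differ beyond their spread.

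A large share of reads on 1 miRNA lowers the RPM of all others in the same library, so the scaling of libraries bears on every direction reported here. The main test scaled libraries by TMM, which sets the bulk of the miRNAs equal, with factors of 1.10 to 1.36 in liver and 0.63 to 1.05 in kidney. A log2 fold change is given as liver minus kidney, positive where liver was higher. Its median over the 250 tested miRNAs was -0.23 with TMM and 0.36 with library size alone, a shift of 0.59 towards liver. A fold change nearer to 0 than this shift can therefore change its sign with the scaling. None of the 156 calls turned with the size factors of DESeq2, and 5 turned with library size alone, none of them larger than 0.61 on the log2 scale.

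Of the 250 tested miRNAs, 67 were called higher in liver (26.8%) and 89 higher in kidney (35.6%) by edgeR's quasi-likelihood test with Benjamini-Hochberg adjustment at 0.05, together 62.4%. With library size alone the split was 95 and 51, and with an exact rank-sum test on RPM it was 92 and 45. Calls beyond a fitted 5-fold were less dependent on scaling, with 19 higher in liver (7.6%) and 25 higher in kidney (10%), against 24 and 21 with library size alone. With kidney replicates 1 and 2 alone, 64 and 85 of 260 tested miRNAs were called for liver and kidney and 19 and 26 passed 5-fold. With kidney replicates 3, 4 and 5 alone it was 88 and 103 of 274, and 24 and 33 beyond 5-fold. The RPM of the organs did not overlap for 83 miRNAs higher in liver (33.2%) and 40 higher in kidney (16.0%), together 49.2%. All 19 miRNAs beyond 5-fold in liver and 22 of the 25 beyond 5-fold in kidney were free of overlap. Just inside the 5-fold limit were cfa-miR-365 (5.02-fold, liver) and cfa-miR-218 (5.24-fold, kidney), and just outside it cfa-miR-200c (4.98-fold) and hsa-miR-30a-3p (4.97-fold), both higher in kidney.

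**Figure D2:**
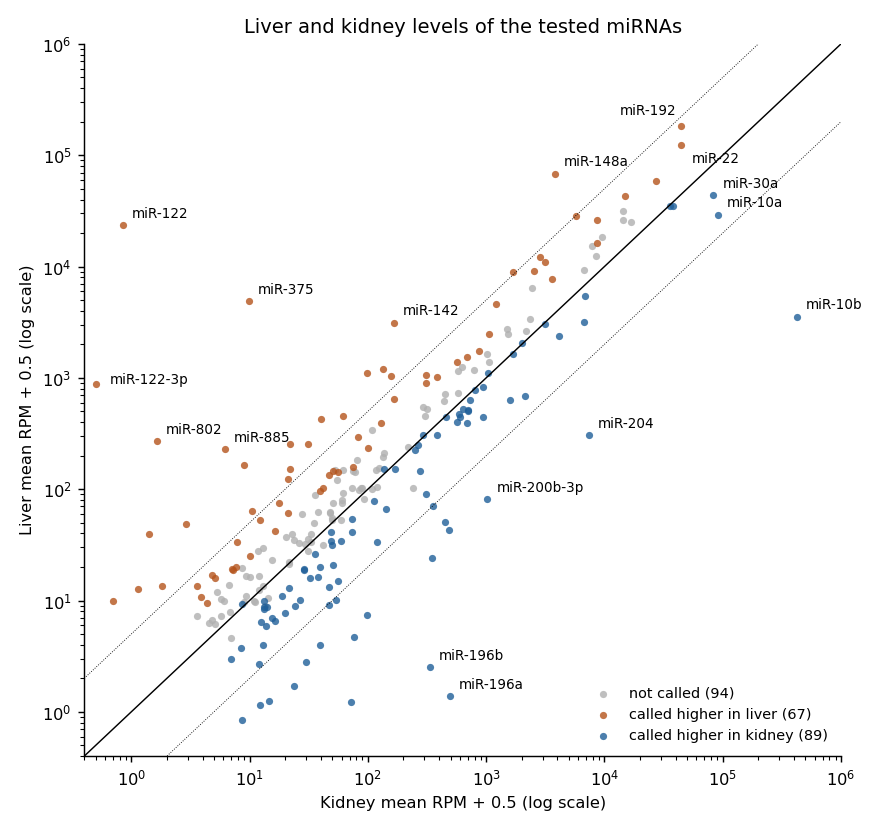
Mean RPM + 0.5 in kidney (x axis, log scale) and in liver (y axis, log scale) of the 250 tested miRNAs, each a point, with the line of equal RPM and dotted lines at 5-fold in RPM; colours give the edgeR call with TMM scaling. The 67 miRNAs called higher in liver reach far above the line at miR-122 and miR-375, and the 89 called higher in kidney reach far below it at miR-196a and miR-10b; some called higher in kidney lie on the line, because the call rests on TMM scaling and the axes on RPM.

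The miRNA that set the organs furthest apart was cfa-miR-122, the hepatocyte miRNA that acts on lipid and cholesterol metabolism. It had 21287, 19138, 29156, 27079 and 22008 RPM in liver. In kidney it had 1, 2, 0, 2 and 1 reads, or 0.917, 0.299, 0, 0.345 and 0.193 RPM, at or below the limit of 3 reads in every library. The ratio of the pooled RPM, liver over kidney, was 73726, with a counting interval from 33872 to 200900 (exact, 95%). In bulk tissue, fewer cells of a type and less RNA per cell cannot be told apart, and the few kidney reads could not be assigned to a cell. The other arm of the hairpin, hsa-miR-122-3p, had 829.8, 752, 838, 968 and 1032 RPM in liver and no read in any kidney library, so it was at least 698-fold higher in liver against 3 reads per library. Both entries also carry the name miR-3591, a hairpin annotated on the opposite strand, and strand was not stated for the counting. In the gene table MIR122 lies between ALPK2 and NEDD4L.

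Of the 20 measured miRNAs on the list of liver-associated miRNAs, 18 were tested, 15 were called higher in liver, as were 26.8% of all tested miRNAs, and none higher in kidney. Their median log2 fold change was 2.42, against -0.23 over all tested miRNAs. The study considered miR-122 and miR-885 liver enriched from these same libraries, and the list was chosen with earlier results of these data known. Its counts and median are therefore a description and not a test. At the detection limit in kidney, both arms of miR-122 and hsa-miR-885-3p entered the test through their liver reads alone, which fixed their direction. With library size alone the count was again 15 and the median 3.11. Summed over the list, the liver libraries had 274661 to 347111 RPM and the kidney libraries 42472 to 65239.6. The 3 tested members without a call were both arms of miR-193a and the 5p arm of miR-101, and 2 further members, hsa-miR-365b-5p and rno-miR-101b-5p, had too few reads for the test. With kidney replicates 1 and 2 alone the list gave 15 calls for liver and 1 for kidney, and with kidney replicates 3, 4 and 5 alone 16 and 1.

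**Figure D3:**
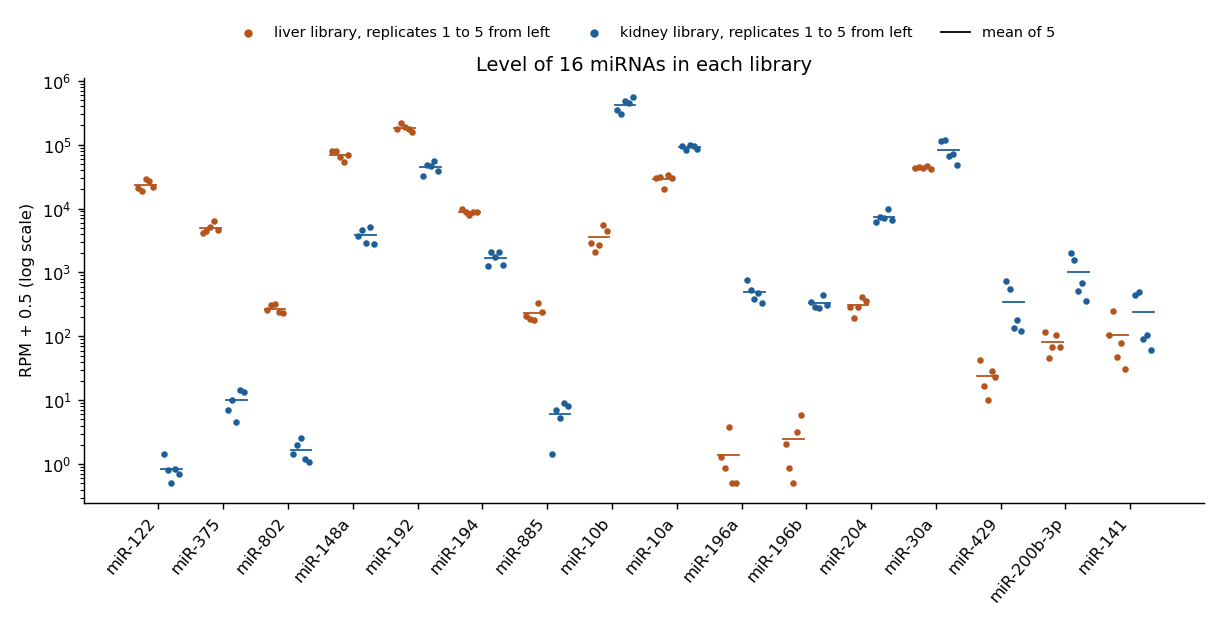
RPM + 0.5 (y axis, log scale) of 16 miRNAs (x axis) in the liver and kidney libraries; each point is a library, replicates 1 to 5 from left to right within an organ, and the bar is the mean of 5. The kidney points of cfa-miR-122 lie at the bottom of the scale, and those of cfa-miR-429, hsa-miR-200b-3p and cfa-miR-141 are higher in replicates 1 and 2 than in replicates 3, 4 and 5.

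Among the largest changes towards liver was that of cfa-miR-375. The islet and gut endocrine miRNA cfa-miR-375 had 4091, 4467, 5093, 6334 and 4579 RPM in liver. In kidney its RPM were 6.42, 9.72, 4.07, 14.2 and 12.7 (log2 fold change 8.25 ± 0.37 SE, edgeR adjusted p = 5.6e-09). The liver values lay far above every kidney value, and the reads of cfa-miR-375 made up nearly all of the summed pancreas markers, at 4093 to 6383 RPM in liver and 4.07 to 15.02 in kidney. The defining acinar markers cfa-miR-216a and cfa-miR-216b reached at most 16.0 and 20.03 RPM, both in liver replicate 4. The median of pancreas was 148274 RPM for cfa-miR-375, and liver ranked 4 of the 16 tissues.

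Also among these was cfa-miR-802, linked to hepatic glucose metabolism, with 259.6, 304, 325, 239 and 228 RPM in liver. Kidney had 0.917, 1.496, 2.03, 0.691 and 0.579 RPM (log2 fold change 7.39 ± 0.34 SE, edgeR adjusted p = 5.6e-09), so that no library of the organs overlapped. In these kidney libraries 3 reads were 2.75, 0.449, 2.03, 0.518 and 0.579 RPM. Replicates 1, 3 and 5 thus lay at or below the detection limit, and the size of the fold change is imprecise. The highest median for cfa-miR-802 among the 16 tissues was again that of pancreas, at 2512 RPM. A lower-level miRNA of neuroendocrine genes, cfa-miR-153, whose hairpin lies within PTPRN2, had 46.7, 64.0, 29.3, 17.4 and 37.9 RPM in liver and 1.83, 2.54, 0, 0.173 and 0 RPM in kidney (log2 fold change 4.92 ± 0.72 SE, edgeR adjusted p = 9.56e-05). It was found at a median of 352 RPM in brain, the highest of the tissues. In kidney cfa-miR-153 passed the detection limit only in replicate 2, so its fold change is imprecise too.

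Both arms of miR-885 were among the largest changes towards liver too. This is the miRNA whose hairpin lies within ATP2B2 and which is followed in human serum as a liver marker. Its main product cfa-miR-885 had 207, 189, 179, 338 and 237 RPM in liver. The kidney libraries gave 0.917, 6.58, 4.75, 8.46 and 7.71 RPM (log2 fold change 4.52 ± 0.42 SE, edgeR adjusted p = 2.09e-06). The other arm, hsa-miR-885-3p, had 16, 24, 4, 10 and 15 reads in the liver libraries and 0, 0, 1, 2 and 0 in the kidney libraries, a ratio of pooled RPM of 59.9, with a counting interval from 19.7 to 298. Brain was the only other tissue with a higher median of cfa-miR-885, at 875 RPM.

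Among the miRNAs beyond 5-fold, the most abundant in liver was cfa-miR-148a, which acts on lipid handling and is also abundant in exocrine pancreas. It had 78399.6, 79159, 63213, 53594 and 68052 RPM and ranked 3 there. In kidney it had 3752, 4594, 2928, 5128 and 2744 RPM and ranked 24 (log2 fold change 3.56 ± 0.22 SE, edgeR adjusted p = 5.97e-08). Its 5p arm moved with it, from 78.9 to 124.1 RPM in kidney to 875 to 1385 in liver (log2 fold change 2.84 ± 0.22 SE, edgeR adjusted p = 5.94e-07). Its relatives with the same seed did not: cfa-miR-148b (log2 fold change -1.05 ± 0.32 SE, edgeR adjusted p = 0.0127) and cfa-miR-152 (log2 fold change -1.15 ± 0.30 SE, edgeR adjusted p = 0.00514) were both called higher in kidney, with overlapping RPM, and the call of cfa-miR-148b was lost without kidney replicate 5 (log2 fold change -0.68, edgeR adjusted p = 0.0508). Over the 6 tested members of the miR-148 and miR-152 family, 2 were called for each organ. Of all tested miRNAs 26.8% were called higher in liver and 35.6% in kidney. The family median moved from -0.30 to 0.23 with library size alone, where neither kidney call remained.

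The adjacent genes of miR-193b and miR-365, a pair known from adipose and liver differentiation, gave calls on both hairpins. The 3p arm of miR-193b, the more abundant, had 975, 1072, 889.8, 1523 and 1502 RPM in liver and 75.2, 143, 129.5, 131 and 192.9 RPM in kidney (log2 fold change 2.44 ± 0.31 SE, edgeR adjusted p = 2.78e-05). For cfa-miR-365 the liver libraries had 414, 422, 356, 522 and 533 RPM and the kidney libraries 88.1, 89.6, 46.1, 44.0 and 36.6 (log2 fold change 2.33 ± 0.20 SE, edgeR adjusted p = 1.11e-06). Its 5p arm hsa-miR-365a-5p was called as well (log2 fold change 3.73 ± 0.50 SE, edgeR adjusted p = 5.12e-05). The kidney mean of this arm was 0.637 RPM, below the 1.27 RPM that 3 reads averaged there, so that fold change is imprecise. Liver was the highest of the 16 tissues for the 3p arm of miR-193b and for cfa-miR-365, followed by thymus with medians of 331 and 290.3 RPM. The cartilage-associated miR-455, hosted by the collagen gene COL27A1, was likewise highest in liver, with 309, 253, 281, 218.96 and 215.6 RPM against 32.1, 28.7, 12.2, 16.9 and 16.6 in kidney (log2 fold change 3.03 ± 0.24 SE, edgeR adjusted p = 7.75e-07). None of the libraries overlapped for rno-miR-193b-3p, cfa-miR-365 and cfa-miR-455.

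In contrast to miR-122, the miR-192 group was abundant in both organs and differed by its amount. These miRNAs are targets of HNF1 and HNF4 transcription factors in gut, liver and kidney epithelium. The level of cfa-miR-192 was 176111, 221981, 188091, 176166 and 159657 RPM in liver and 31926, 47962, 46094, 56012 and 39101 RPM in kidney (log2 fold change 1.43 ± 0.23 SE, edgeR adjusted p = 0.000214). The level of cfa-miR-194, whose gene lies within IARS2 beside that of miR-215, was 7908 to 9930.1 RPM in liver and 1238 to 2075 in kidney (log2 fold change 1.77 ± 0.18 SE, edgeR adjusted p = 5.09e-06). No library of 1 organ reached the range of the other for either. Of 4 tested members, 3 were called higher in liver, as were 26.8% of all tested miRNAs. The median log2 fold change of the 4 was 1.44, against -0.23 over all tested miRNAs. The call was missing for cfa-miR-215, which shares the seed of miR-192 and overlapped between the organs (log2 fold change 0.72 ± 0.33 SE, edgeR adjusted p = 0.0758). Without liver replicate 1 it was called (log2 fold change 0.97, edgeR adjusted p = 0.0244). Rank differed too, with cfa-miR-192 at rank 1 in liver and rank 5 in kidney.

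On the kidney side, the 8 measured HOX-cluster miRNAs of the miR-10 and miR-196 families included the most abundant kidney miRNA and the largest fold changes towards kidney. All 6 tested were called higher in kidney, as were 35.6% of all tested miRNAs. The median log2 fold change was -7.59, or -6.12 with members at the detection limit in liver set to their bound, against -0.23 over all tested miRNAs. The filter on low counts keeps a miRNA with enough reads in either organ. At the detection limit in liver, cfa-miR-196a and hsa-miR-10b-3p entered the test through their kidney reads alone, which fixed their direction. The 6 calls remained with library size alone, with kidney replicates 1 and 2 alone and with kidney replicates 3, 4 and 5 alone. In the gene table MIR10B lies between HOXD8 and HOXD3, MIR10A within HOXB3, MIR196B between HOXA9 and HOXA10, and the MIR196A copies between HOXB9 and HOXB13 and between HOXC10 and HOXC4.

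The level of cfa-miR-10b was 343161, 297875, 478946, 445638 and 547844 RPM in kidney. In liver it was 2911, 2059, 2697, 5597 and 4466 RPM, so that the lowest kidney library lay above the highest liver library (log2 fold change -7.63 ± 0.43 SE, edgeR adjusted p = 3.44e-08). Its other arm, hsa-miR-10b-3p, had 69, 434, 94, 484 and 438 reads in kidney and 0, 0, 0, 1 and 3 in liver, at a pooled RPM ratio, kidney over liver, of 145.7, with a counting interval from 56.8 to 535. In kidney replicates 1 and 2 the RPM of cfa-miR-10b were below those of the other 3 replicates. The closely related cfa-miR-10a differed less, with 30341, 31522, 20481, 33836 and 30075 RPM in liver and 95599, 82799.8, 100359, 94677 and 84567 RPM in kidney (log2 fold change -2.30 ± 0.20 SE, edgeR adjusted p = 1.61e-06). The organs thus stood in opposite order for the pair: in liver every library had more cfa-miR-10a than cfa-miR-10b, and in kidney every library had more cfa-miR-10b.

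The miR-196 miRNAs, which target HOX mRNAs themselves, were close to absent from liver. The liver libraries had 2, 1, 2, 0 and 0 reads of cfa-miR-196a, and the kidney libraries 821, 3565, 558, 2742 and 1743, or 753, 533, 378, 473 and 336 RPM. The pooled ratio, kidney over liver, was 724, with a counting interval from 309.9 to 2229. Of cfa-miR-196b the kidney had 344, 289, 277, 447 and 304 RPM and the liver 1.60, 0.385, 0, 2.67 and 5.41 RPM (log2 fold change -8.05 ± 0.52 SE, edgeR adjusted p = 1.04e-07). The highest liver value of cfa-miR-196b was 5.41 RPM and its lowest kidney value 277 RPM. In liver replicates 2, 3 and 4 it stood at or below the detection limit, so the size of its fold change is imprecise. The passenger arm hsa-miR-196a-3p had no read in liver and 12, 30, 4, 10 and 8 reads in kidney, too few for the test.

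Hosted by the channel gene TRPM3, cfa-miR-204 is an epithelial miRNA of kidney tubule, retina and choroid plexus. It had 6267, 7284, 7234, 9751 and 6563 RPM in kidney. The liver libraries had 288, 193.8, 283, 409 and 360.2 RPM (log2 fold change -5.27 ± 0.24 SE, edgeR adjusted p = 5.6e-09). Kidney had the highest median of the 16 tissues, before brain with 5411 RPM. Its close relative miR-211 was measured but did not pass the filter on low counts. Of the 25 measured miRNAs of the kidney-associated list, 18 were tested, 13 were called higher in kidney and 1 higher in liver, and the median log2 fold change was -1.76. Of all 250 tested miRNAs 35.6% and 26.8% were called so, with a median of -0.23. This list too was chosen with earlier results of these data known. Its members cfa-miR-196a and hsa-miR-10b-3p, at the detection limit in liver, had their direction fixed by their kidney reads alone. With library size alone the counts were 12 and 2. With kidney replicates 1 and 2 alone they were 14 and 0 of 19 tested, and with replicates 3, 4 and 5 alone 14 and 1 of 20.

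The single call for liver within that list came from the miR-30 family, which is abundant in podocytes and tubule cells and whose 5p products share a seed. The 10 tested members include 3p arms, cfa-miR-30e among them, which do not carry that seed. Of the 10, 5 were called higher in kidney and 1 higher in liver, where 35.6% and 26.8% of all tested miRNAs were. The most abundant, cfa-miR-30a, had 113905, 118356, 65888, 72089 and 47978 RPM in kidney and 43270, 44876, 42465, 46320.2 and 41341 RPM in liver (log2 fold change -1.49 ± 0.16 SE, edgeR adjusted p = 8.42e-06). Larger gaps were seen for the 3p arms hsa-miR-30a-3p (log2 fold change -2.31 ± 0.20 SE, edgeR adjusted p = 1.58e-06) and hsa-miR-30c-2-3p (log2 fold change -2.45 ± 0.20 SE, edgeR adjusted p = 7.95e-07), and for cfa-miR-30c (log2 fold change -1.66 ± 0.14 SE, edgeR adjusted p = 1.11e-06), none of which overlapped. For cfa-miR-30d the sign was opposite, with 14953 to 18517 RPM in liver and 5429 to 12243 in kidney (log2 fold change 0.34 ± 0.12 SE, edgeR adjusted p = 0.0294). That call was lost without liver replicate 3 or 4 (edgeR adjusted p = 0.0745 and 0.0743). The family was therefore not uniform, and its median of -0.39 became 0.19 with library size alone. Under that scaling cfa-miR-30b, called higher in kidney (log2 fold change -0.55 ± 0.14 SE, edgeR adjusted p = 0.00397), turned to a log2 fold change of 0.02. The 95% interval of cfa-miR-30e, -0.46 to 0.17 on the log2 scale, and that of hsa-miR-30e-5p, -0.58 to 0.51, included 0.

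The miR-200 family, which keeps epithelial cells in their state through repression of ZEB1 and ZEB2, was higher in kidney. It comes from a cluster of miR-200b, miR-200a and miR-429, within TTLL10 in the gene table, and a cluster of miR-200c and miR-141, between PTPN6 and PHB2. Of 9 measured members 7 were tested and 6 called higher in kidney, as were 35.6% of all tested miRNAs. The median log2 fold change was -3.99, or -3.91 with the member at the detection limit in liver set to its bound, against -0.23 over all tested miRNAs. That member, cfa-miR-200b, entered the test through its kidney reads alone, which fixed its direction. The summed family had 808 to 4149 RPM in kidney and 162 to 376 in liver. The count was 6 with library size alone.

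Within kidney the family split along the libraries. The main product hsa-miR-200b-3p had 2018, 1562, 511, 679 and 363 RPM in kidney and 116, 45.9, 68.3, 104 and 68.0 RPM in liver (log2 fold change -4.18 ± 0.41 SE, edgeR adjusted p = 3.68e-06). Kidney replicates 1 and 2 were thus above the other 3 replicates, while all 5 remained above liver. The same order was seen for cfa-miR-429, with 736, 554, 136, 181 and 122 RPM in kidney against 9.76 to 42.7 in liver (log2 fold change -4.30 ± 0.52 SE, edgeR adjusted p = 2.11e-05). For hsa-miR-200a-3p the kidney libraries had 843, 792, 277, 316 and 207 RPM (log2 fold change -3.99 ± 0.38 SE, edgeR adjusted p = 2.64e-06). Members of the other cluster differed less, with 3.86 to 20.4 RPM of cfa-miR-200c in liver and 26.8 to 77.9 in kidney (log2 fold change -2.32 ± 0.45 SE, edgeR adjusted p = 0.000818). The values of cfa-miR-141 overlapped, at 104, 253, 47.2, 78.8 and 30.1 RPM in liver and 445, 496.8, 90.2, 104 and 60.9 RPM in kidney (log2 fold change -1.57 ± 0.65 SE, edgeR adjusted p = 0.0547). It was called without liver replicate 2 (log2 fold change -2.21, edgeR adjusted p = 0.0101), and without kidney replicate 3 or 5 (edgeR adjusted p = 0.0445 and 0.0372). The 5p product cfa-miR-200b, at the detection limit in liver, had a pooled RPM ratio, kidney over liver, of 19.4, with a counting interval from 8.83 to 53.4. With kidney replicates 1 and 2 alone all 7 members were called, and with replicates 3, 4 and 5 alone 6.

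Further large changes towards kidney were those of cfa-miR-9, miR-874, cfa-miR-335 and cfa-miR-2387. The neural miRNA cfa-miR-9 had 103, 137, 54.2, 52.5 and 36.1 RPM in kidney and 9.97, 2.70, 3.25, 2.67 and 2.32 RPM in liver (log2 fold change -4.55 ± 0.46 SE, edgeR adjusted p = 4.56e-06). It was the 1 tested member of the neural markers, which include miR-124 and miR-219, and the brain median was 38121 RPM. The other 7 measured neural markers summed to 6.78 to 20.9 RPM in liver and 9.17 to 10.8 in kidney. Without a filter on low counts 7 of the 8 were tested, 2 were called higher in kidney and 1 higher in liver, and their median log2 fold change was 0.04. Both arms of miR-874, hosted by the tubule gene KLHL3, were higher in kidney, with 24.8, 44.4, 139, 138 and 140.2 RPM of cfa-miR-874 in kidney and 9.17, 6.17, 3.25, 9.35 and 6.96 RPM in liver (log2 fold change -4.51 ± 0.62 SE, edgeR adjusted p = 5.85e-05). The 5p arm had 8 reads in all liver libraries and 487 in all kidney libraries, a pooled RPM ratio of 23.4, with a counting interval from 11.8 to 54.4. Its brain median was 117 RPM, against a kidney mean of 23.2. Hosted by the imprinted gene MEST, cfa-miR-335 had 10, 67, 14, 111 and 55 reads in kidney and 3, 0, 0, 1 and 1 in liver, a pooled ratio of 19.7, with a counting interval from 8.34 to 61.3. The brain median of cfa-miR-335 was 271 RPM, against a kidney mean of 11.7. Reads of cfa-miR-2387 numbered 11, 38, 13, 57 and 34 in kidney and 1, 0, 0, 1 and 0 in liver, a pooled ratio of 29.4, with a counting interval from 7.99 to 245. At the detection limit in liver, hsa-miR-874-5p, cfa-miR-335 and cfa-miR-2387 entered the test through their kidney reads alone, which fixed their direction.

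The imprinted DLK1-DIO3 cluster, a large maternally expressed group of miRNAs, had 66 measured members, of which 50 had a read in either organ and 5 were tested. All 5 were called higher in kidney, with a median log2 fold change of -2.57, against 35.6% and -0.23 over all tested miRNAs. The most abundant, cfa-miR-127, had 109, 150.5, 624, 838 and 514 RPM in kidney and 81.7, 21.6, 43.9, 62.8 and 41.0 RPM in liver (log2 fold change -3.92 ± 0.66 SE, edgeR adjusted p = 0.000274). Here kidney replicates 3, 4 and 5 were the high ones, the reverse of the miR-200 family. For cfa-miR-411 the kidney libraries had 44.9, 67.9, 155.3, 212 and 114 RPM and the liver libraries 23.9 to 39.9 (log2 fold change -2.57 ± 0.46 SE, edgeR adjusted p = 0.000446). The RPM of the other 3, cfa-miR-381, cfa-miR-410 and cfa-miR-380, overlapped, and cfa-miR-410 lost its call in 6 of the 10 fits that left out 1 library (without kidney replicate 3, 4 or 5 or liver replicate 2, 3 or 5, edgeR adjusted p = 0.0577 to 0.107). With kidney replicates 1 and 2 alone 3 of 4 tested members were called and the median was -1.46, and with replicates 3, 4 and 5 alone 7 of 7 with a median of -3.08. The filter on low counts keeps a miRNA with enough reads in either organ, so the 5 do not speak for the cluster. Without that filter 10 of 50 members were called higher in kidney and 1 higher in liver, and with all tissues in the fit 13 and 1 of 46.

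Further calls beyond 5-fold in kidney were the X-linked pair cfa-miR-452 (log2 fold change -4.11 ± 0.57 SE, edgeR adjusted p = 5.85e-05) and cfa-miR-224 (log2 fold change -3.24 ± 0.42 SE, edgeR adjusted p = 3.57e-05), which are neighbours, and the hypoxia-induced cfa-miR-210 (log2 fold change -3.25 ± 0.37 SE, edgeR adjusted p = 1.21e-05). The kidney libraries had 35.8, 53.1, 44.8, 66.3 and 66.3 RPM of cfa-miR-210 and the liver libraries 7.58, 5.78, 13.01, 14.7 and 6.96. All 3 were free of overlap between the organs. By contrast, cfa-miR-31, cfa-miR-381 and cfa-miR-138a were called beyond 5-fold although their RPM overlapped, with kidney replicates as far apart as 50.0 and 743 RPM for cfa-miR-31.

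Blood cell miRNAs were higher in liver, in animals that had been perfused. Of 7 tested leukocyte markers 6 were called higher in liver and none in kidney, with a median log2 fold change of 1.98, where 26.8% of all tested miRNAs were called higher in liver and the overall median was -0.23. The hematopoietic cfa-miR-142 had 3434, 3089, 3777, 1753 and 3603 RPM in liver and 272, 188, 170.2, 85.6 and 109 RPM in kidney (log2 fold change 3.68 ± 0.30 SE, edgeR adjusted p = 8.72e-07). The myeloid cfa-miR-223 had 39.5, 75.9, 65.1, 22.7 and 36.3 RPM in liver and 3.67, 3.44, 2.71, 1.90 and 0.386 RPM in kidney (log2 fold change 3.90 ± 0.51 SE, edgeR adjusted p = 3.53e-05). The other arm, hsa-miR-142-3p, was called alike (log2 fold change 3.77 ± 0.35 SE, edgeR adjusted p = 2.09e-06). Neither cfa-miR-142 nor cfa-miR-223 overlapped, and the same held for cfa-miR-146a (log2 fold change 1.98 ± 0.35 SE, edgeR adjusted p = 0.000416) and the lymphoid cfa-miR-150 (log2 fold change 1.87 ± 0.30 SE, edgeR adjusted p = 0.0002). The 1 member without a call was cfa-miR-155 (log2 fold change 0.57 ± 0.31 SE, edgeR adjusted p = 0.127), and it was called without kidney replicate 1 (edgeR adjusted p = 0.0403). Summed over the 9 measured leukocyte markers the liver libraries had 3939 to 5868 RPM and the kidney libraries 404 to 565. The count was 6 with kidney replicates 1 and 2 alone and 7 with replicates 3, 4 and 5 alone.

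Erythroid markers moved the same way, with 3 of 4 called higher in liver and a median log2 fold change of 2.05. Over all tested miRNAs these were 26.8% and -0.23. The most abundant, cfa-miR-486, had 36376, 18536, 32137, 28708 and 26326 RPM in liver and 5712, 3148, 6043, 4170.4 and 9439 RPM in kidney (log2 fold change 1.59 ± 0.36 SE, edgeR adjusted p = 0.00231). Both arms of miR-144 were called as well, cfa-miR-144 with a log2 fold change of 2.98 ± 0.56 SE. Its neighbour cfa-miR-451 did not overlap in RPM, with 4611 to 8747 in liver and 1197 to 4194 in kidney, but was not called (log2 fold change 0.64 ± 0.39 SE, edgeR adjusted p = 0.179). Without kidney replicate 5 it was called, at a log2 fold change of 1.14 (edgeR adjusted p = 0.0143). The summed erythroid level ranged from 24268 to 46203 RPM in liver and from 4416 to 13676 in kidney, and 4 and 3 members were called with kidney replicates 1 and 2 alone and with replicates 3, 4 and 5 alone. The part of residual blood or resident blood cells in these and the other results was not tested.

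In the main test the endothelial, smooth muscle, fibroblast and muscle markers were called in both directions or not at all. Neither arm of the endothelial miR-126 was called, with a log2 fold change of 0.41 for cfa-miR-126 (95% interval 0.03 to 0.78) and 0.15 for hsa-miR-126-3p (-0.19 to 0.49), while both were called higher in liver with library size alone. In 5 of the 10 fits that left out 1 library (kidney replicate 1, 2 or 5, liver replicate 1 or 2) cfa-miR-126 was called higher in liver (edgeR adjusted p = 0.0187 to 0.0472). Its RPM were 10547, 12688, 5335, 6254 and 4608 in kidney, higher in replicates 1 and 2, and 13585 to 16196 in liver. Among 8 tested smooth muscle and fibroblast markers 4 were called higher in liver and 2 in kidney, where 26.8% and 35.6% of all tested miRNAs were. The abundant cfa-miR-143 was called higher in liver (log2 fold change 0.58 ± 0.21 SE, edgeR adjusted p = 0.0296) and its cluster partner cfa-miR-145 higher in kidney (log2 fold change -1.16 ± 0.33 SE, edgeR adjusted p = 0.00861), both with overlapping RPM. The other liver calls were cfa-miR-199 (log2 fold change 1.35), hsa-miR-214-5p (1.31) and hsa-miR-199a-5p (0.99). The other kidney call was hsa-miR-199b-5p (-2.20). The call of cfa-miR-143 was lost without kidney replicate 1 or 3 or liver replicate 3 (edgeR adjusted p = 0.0602, 0.0587 and 0.0794). Of the muscle markers only cfa-miR-133a (log2 fold change -1.66 ± 0.46 SE, edgeR adjusted p = 0.00738) and cfa-miR-499 (log2 fold change 0.81 ± 0.30 SE, edgeR adjusted p = 0.0317) had enough reads for the test, in opposite directions and with overlap. The call of cfa-miR-499 was lost without kidney replicate 1 or 3 or liver replicate 3 or 5 (edgeR adjusted p = 0.0524 to 0.0956). Summed, the muscle markers had 36.6 to 159 RPM in liver and 95.7 to 259 in kidney.

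**Figure D4:**
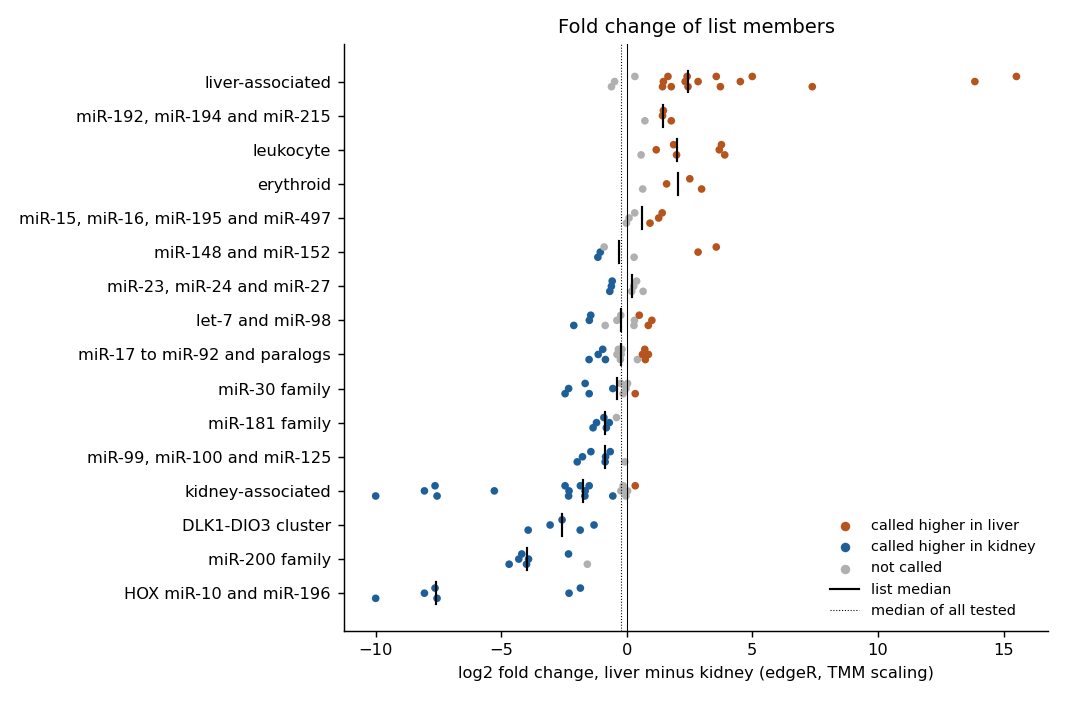
Log2 fold change, liver minus kidney (x axis), of the tested members of each list of miRNAs (y axis), each a point coloured by its edgeR call; the black tick is the median of the list and the dotted line the median of all 250 tested miRNAs, at -0.23. The liver-associated list (median 2.42) and the leukocyte and erythroid markers lie to the right, the HOX, miR-200 and DLK1-DIO3 groups to the left, and most large families straddle the line.

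The large families that every tissue uses lay close to the median of all miRNAs, and the direction of several of them turned with the scaling. Their counts of calls stand beside 26.8% of all tested miRNAs called higher in liver and 35.6% called higher in kidney. Of 11 tested members of let-7 and miR-98, a family that restrains proliferation, 3 were called for each organ. The 11 include 3p arms, cfa-let-7d among them. The abundant cfa-let-7f was higher in liver, at 42699, 39825, 49236, 40063 and 43839 RPM against 22240, 21748, 9719, 12131 and 8199 in kidney (log2 fold change 1.00 ± 0.19 SE, edgeR adjusted p = 0.000584). Going the other way were cfa-let-7c (log2 fold change -1.49 ± 0.23 SE, edgeR adjusted p = 0.000133) and cfa-let-7e (log2 fold change -1.43 ± 0.13 SE, edgeR adjusted p = 1.82e-06), and none of the 3 overlapped. The let-7 median was -0.24 with TMM and 0.39 with library size alone.

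The genes of cfa-let-7e, cfa-miR-125a and cfa-miR-99b are neighbours, and all 3 were called higher in kidney without overlap, cfa-miR-125a with 1452, 1832, 1436, 1718 and 1517 RPM in kidney and 556, 533, 535, 725 and 837 RPM in liver (log2 fold change -1.97 ± 0.16 SE, edgeR adjusted p = 7.95e-07). Of 7 tested members of the miR-99, miR-100 and miR-125 families 6 were called higher in kidney, where 35.6% of all tested miRNAs were, and 3 with library size alone. Of 6 tested miR-181 members, known from lymphocyte development, 5 were called higher in kidney but 1 with library size alone, and their RPM overlapped between the organs. The group of 14 tested members of miR-17 to miR-92 and its paralogs, oncogenic clusters of cycling cells, had 4 calls in each direction, and 4 for liver and none for kidney with library size alone. Its liver calls came from both arms of miR-106b, cfa-miR-25 and cfa-miR-93, all from 1 cluster, and its kidney calls were cfa-miR-92a, cfa-miR-92b, cfa-miR-18a and cfa-miR-363, of which cfa-miR-92a and cfa-miR-363 lost their call without liver replicate 2 (edgeR adjusted p = 0.055 and 0.0671).

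Among 6 tested members of the miR-15 and miR-16 group, which repress cyclins and BCL2, 3 were called higher in liver. For cfa-miR-16 the liver libraries had 9706, 9446, 9147, 8570.1 and 8865 RPM and the kidney libraries 3487, 3356, 2393, 2163 and 1407 (log2 fold change 1.27 ± 0.15 SE, edgeR adjusted p = 1.97e-05). Next to it, cfa-miR-15a moved alike (log2 fold change 1.41 ± 0.22 SE, edgeR adjusted p = 0.000159), and neither overlapped. The miR-29 family, which represses collagens, split by gene, with cfa-miR-29a (log2 fold change 0.45 ± 0.16 SE, edgeR adjusted p = 0.0249) and cfa-miR-29b (log2 fold change 0.76 ± 0.25 SE, edgeR adjusted p = 0.0197) called higher in liver and both arms of miR-29c in kidney. Without liver replicate 5 neither cfa-miR-29a nor cfa-miR-29b was called (edgeR adjusted p = 0.0527 and 0.0578), and cfa-miR-29a was not called without liver replicate 3 (edgeR adjusted p = 0.0738). The miR-23, miR-24 and miR-27 group had 3 kidney calls of 7, but none for kidney and 2 for liver with library size alone, so no direction can be given for it. The miR-221 and miR-222 pair had 1 liver call of 3 tested (cfa-miR-222), the miR-34 and miR-449 group 1 kidney call of 2 (cfa-miR-34c), the miR-424 to miR-542 group 1 kidney call of 5 (hsa-miR-424-5p), the miR-378 and miR-33 group 1 liver call of 4, and the miR-183 cluster none of 2.

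Of the hairpins assayed by qPCR in the study, most of them candidates for organ injury, 44 products were measured here, 20 were tested, and 12 were called higher in liver and 4 higher in kidney, where 26.8% and 35.6% of all 250 tested miRNAs were. With library size alone the counts were 13 and 2, and with library size without cfa-miR-10b 9 and 4. The 12 include both arms of miR-122 and hsa-miR-885-3p, whose direction was fixed by their liver reads alone. Beside those already described, cfa-miR-21, which rises in injured and fibrotic tissue, had 24921, 28742, 27167, 23017 and 28465 RPM in liver and 16239, 16043, 3132, 5139 and 2491 RPM in kidney (log2 fold change 1.17 ± 0.39 SE, edgeR adjusted p = 0.0210). Kidney replicates 1 and 2 were at the top of the kidney range. For cfa-miR-186 the 95% interval of the log2 fold change ran from -0.25 to 0.19 and the liver and kidney RPM were 12026 to 13325 and 6328 to 9982. With library size alone its log2 fold change was 0.57. Muscle members of the panel (miR-1, miR-206, miR-208b) and the pancreas members had too few reads in both organs for a test.

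For 57 of the 250 miRNAs the 95% interval of the log2 fold change lay within -1 to 1. The most abundant of these were cfa-miR-378 (0.45, interval -0.07 to 0.96), cfa-let-7a (0.29, 0.01 to 0.57), cfa-miR-27b (0.39, 0.02 to 0.77), cfa-miR-191 (-0.05, -0.41 to 0.31) and cfa-miR-30d (0.34, 0.07 to 0.60). Their RPM were nevertheless mostly higher in liver, and with library size alone cfa-miR-378, cfa-let-7a and cfa-miR-27b were called higher in liver, as they were without some single libraries: cfa-miR-378 without kidney replicate 4 or 5, cfa-let-7a without kidney replicate 1 or 5 or liver replicate 1 or 2, and cfa-miR-27b without kidney replicate 1 or liver replicate 1. The kidney libraries had 18782, 18310.4, 10811, 12349 and 11159.5 RPM of cfa-let-7a, again higher in replicates 1 and 2, and the liver libraries 21562 to 32837. For cfa-miR-191 the RPM were 18805 to 34507 in liver and 14594 to 18073 in kidney. The RPM total of kidney includes cfa-miR-10b, whereas TMM scales on the bulk of the miRNAs. Of the other abundant shared miRNAs, cfa-miR-26a had a log2 fold change of -0.70 ± 0.22 (edgeR adjusted p = 0.0139), lost without liver replicate 1 or 2 (edgeR adjusted p = 0.0658 and 0.0544), and cfa-miR-181a of -0.81 ± 0.23 (edgeR adjusted p = 0.00799).

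Few miRNAs could be seen in only 1 of the organs. A read was found for 472 miRNAs in liver and 509 in kidney, for 453 in both and for 269 in all 10 libraries. The number detected per library ran from 341 to 418 in liver (median 383) and from 360 to 459 in kidney (median 438), with overlap, a difference of -38.4 in the means (exact permutation test, two-sided, p = 0.151, adjusted p = 0.194 over 9 measures). Thinned to the same 615551 reads per library, the organs had 323 to 349 and 324 to 348 miRNAs, and the sign of the difference turned to 5.4 (exact permutation p = 0.476), so a difference in the number of miRNAs was not detectable at this depth. More than 3 reads in all 5 libraries of 1 organ and at most 3 in each library of the other were found for 3 miRNAs in liver, both arms of miR-122 and hsa-miR-885-3p, and for 8 in kidney. The 8 were cfa-miR-196a, hsa-miR-196a-3p, hsa-miR-10b-3p, cfa-miR-200b, cfa-miR-335, cfa-miR-2387, hsa-miR-874-5p and hsa-miR-452-3p. Without kidney replicate 1, the shallowest kidney library, the kidney count was 20, and without liver replicate 3, the shallowest of all, the liver count was 5.

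Where both arms of a hairpin were called, they went the same way with 1 exception. Of 58 hairpins with both arms tested, 28 had both called, 27 of them in the same direction, with 14 for liver and 13 for kidney, while 18 had exactly 1 arm called and 12 none. Over all 250 tested miRNAs 26.8% were called higher in liver and 35.6% higher in kidney. The exception was hsa-miR-199b-5p, higher in kidney (log2 fold change -2.20 ± 0.56 SE, edgeR adjusted p = 0.00514), against cfa-miR-199, higher in liver (log2 fold change 1.35 ± 0.20 SE, edgeR adjusted p = 9.02e-05). Since the latter is a 3p sequence common to miR-199a and miR-199b, and hsa-miR-199a-5p was higher in liver too (log2 fold change 0.99 ± 0.20 SE, edgeR adjusted p = 0.00125), its reads cannot be assigned to either hairpin. The ratio of arms was often similar between the organs: cfa-miR-885 to its 3p arm stood at 24.4 in liver and 27.8 in kidney, and cfa-miR-142 to its 3p arm at 18.9 and 19.5. Larger differences were seen for miR-101, whose 3p product cfa-miR-101 was called higher in liver (log2 fold change 1.64 ± 0.39 SE, edgeR adjusted p = 0.00301) while hsa-miR-101-5p was not called (log2 fold change -0.48 ± 0.35 SE, edgeR adjusted p = 0.252). The kidney libraries had 5177, 5269, 1328, 1633 and 861 RPM of cfa-miR-101 and the liver libraries 8389.8 to 15163, with kidney replicates 1 and 2 above the other 3.

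The calls of miRNAs with neighbouring genes were set side by side. Among tested miRNAs with a dog name, 174 were matched to the gene table and formed 36 clusters of members no more than 10000 bases apart, a miRNA with several gene copies being counted in the cluster of each copy. Of 19 clusters with 2 or more calls 16 had all calls in 1 direction, where 26.8% of all 250 tested miRNAs were called higher in liver and 35.6% in kidney. All members were called higher in liver in 4 clusters (miR-106b with miR-25 and miR-93, miR-15a with miR-16, miR-193b with miR-365, miR-29a with miR-29b) and higher in kidney in 8, among them miR-200a with miR-200b and miR-429, the X-linked miR-362, miR-500, miR-502, miR-532 and miR-660, and miR-224 with miR-452. Calls in both directions were found in 3 clusters, miR-143 with miR-145, miR-29b with miR-29c and miR-30b with miR-30d, and in the last of these the call of cfa-miR-30b was lost with library size alone.

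Set beside the other tissues of the series, most of the differences beyond 5-fold were in miRNAs with their highest median in another tissue. Of the 19 miRNAs beyond 5-fold in liver, 7 had liver as the tissue with the highest median, among 18 of all 250 tested. They were both arms of miR-122, both of miR-193b, both of miR-365 and cfa-miR-455. Of the 25 beyond 5-fold in kidney, 4 had kidney as the highest, among 9 of all tested, namely cfa-miR-10b, cfa-miR-196a, cfa-miR-204 and hsa-miR-30c-2-3p. For cfa-miR-10b skeletal muscle followed with a median of 416863 RPM and for cfa-miR-196a sciatic nerve with 465 RPM. In the tissue next to liver for cfa-miR-122, sciatic nerve, the median was 58.9 RPM, against 22008 in liver.

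The plasma libraries of the same series were set beside these differences. Their median was at least 100 RPM for 7 of the 19 liver miRNAs, namely cfa-miR-375, cfa-miR-148a, cfa-miR-223 and both arms of miR-142 and miR-144. The same held for 2 of the 25 kidney miRNAs, cfa-miR-10b and cfa-miR-127, and for 100 of all 250 tested. In plasma cfa-miR-122 had at most 0.566 RPM in any library, and cfa-miR-885 a median of 0. By contrast, cfa-miR-375 had a plasma median of 283 RPM, cfa-miR-148a of 3333, and cfa-miR-192 of 10683. The blood cell miRNA cfa-miR-142 had a plasma median of 22440.2 RPM. On the kidney side cfa-miR-10b stood at 8469 and cfa-miR-204 at 1.92 RPM.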

How the data were processed

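Small RNA libraries (TruSeq) of untreated beagle tissue homogenates were sequenced by the authors, who clipped adaptors, aligned reads without mismatch to CanFam3.1 (the build in the submitters' processing notes) and counted reads overlapping miRNA loci annotated in dog, rat and human. The deposited table gives 1 count per miRNA and sample, with entries of near-identical names merged, and the authors' total count of reads on miRNAs. Names starting cfa, hsa and rno are of dog, human and rat annotation.

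Here, RPM was the deposited count divided by that total, and an absent entry was taken as 0. Of 77 sample names in the table, 1 matched no labelled sample and was not used. The 5 liver and 5 kidney libraries were compared on the deposited counts with edgeR 4.0.16 in R 4.3.3, using TMM scaling, the default filter on low counts (250 of 528 detected miRNAs kept, which held at least 99.95% of the reads of each library) and the quasi-likelihood test, with Benjamini-Hochberg adjustment over all tested miRNAs at 0.05. An SE is that of the fitted log2 fold change and intervals are at 95%. Values per library were compared by two-sided exact permutation tests. Alternatives were the size factors and the Wald test of DESeq2 1.42.0, library size alone, an exact rank-sum test on RPM, no filter on low counts, a fit of all 16 tissues, thinning to the smallest library and leaving out each library. Splits of the kidney libraries and scaling without cfa-miR-10b were added after seeing the data. Scripts were tested on simulated data.

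The miRNAs named are the members of the liver-associated, kidney-associated, miR-200 and qPCR lists, the 10 largest non-overlapping changes each way, the 10 most abundant of each organ, and the 5 most abundant with an interval within -1 to 1, with examples from other lists and cell type markers. A few more were named after their values were seen, namely cfa-miR-455, cfa-miR-210, cfa-miR-224, cfa-miR-452, cfa-miR-31 and cfa-miR-138a. The members and lists were chosen with earlier results of these data known. Gene neighbours come from RefSeq names on UU_Cfam_GSD_1.0, another assembly than that of the counts, so no coordinates are given.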

Additional observations from a re-analysis of the deposited data

Results flagged for a closer look

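In 162 groups of 5 libraries, 8 values lay apart from the other 4 of their organ, by a gap above 0.71 of the group's range. Chance alone flags about 1 in 20 groups. Liver replicate 3, the shallowest library, had a low level of cfa-miR-10a, 20481 RPM against 30075 to 33836 in the other liver libraries. It had a high level of cfa-miR-190a, 6.51 RPM against 2.32 to 3.47, but 3 reads were 4.88 RPM in that library, so the value lay near the detection limit. Liver replicate 4 was high in the acinar miRNAs cfa-miR-216a, at 16.0 RPM against 0.399 to 2.32, and cfa-miR-216b, at 20.03 RPM against 0.771 to 5.41. It also had the highest cfa-miR-375 of the liver libraries, at 6334 RPM, and without it the log2 fold change of cfa-miR-375 was 8.18 (edgeR, still called). Liver replicate 1 was high in hsa-miR-200a-3p, at 74.2 RPM against 34.0 to 35.8, and in cfa-miR-9, at 9.97 RPM against 2.32 to 3.25. Kidney replicate 4 was high in cfa-miR-335, at 19.2 RPM against 9.17 to 10.6, and in hsa-miR-192-3p, at 15.4 RPM against 4.59 to 6.10. The causes of these values were not tested.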

How the results depend on the processing

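Of 54 named miRNAs with a call, 44 kept their direction and call under each of these alternatives in which they were tested, and 1, cfa-miR-30b, changed sign. A miRNA that fell below the filter in a fit was not judged there. The counts of calls moved with the scaling, the filter and the samples in the fit. Calls for kidney fell from 89 to 51 with library size alone and to 45 with the exact rank-sum test on RPM, which changes both the test and the scaling, against 95 and 92 for liver, while DESeq2 size factors gave 78 and 85 and the DESeq2 Wald test 79 and 86 (liver and kidney). Scaling on library size without cfa-miR-10b, added after seeing the data, gave 53 and 103. Without a filter, 528 miRNAs were tested, 100 were called for liver and 104 for kidney, and 37 in liver and 44 in kidney passed 5-fold, and with all tissues in the fit 50 passed it in kidney; more miRNAs enter the test in both. Thinning turned the difference in detected miRNAs to 5.4 (exact permutation p = 0.476) and raised the miRNAs found in liver alone from 3 to 8.

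Leaving out 1 library at a time gave 65 to 77 calls for liver and 79 to 106 for kidney, and 16 to 21 and 22 to 35 beyond 5-fold. The detection difference ran from -53.1 to -28.4 (exact permutation p = 0.0635 to 0.302). The share of the leading miRNA differed by -26.9 to -20.7 percentage points and that of the 10 leading by -18.0 to -15.5 (exact permutation p = 0.0159 throughout). The miRNAs found in 1 organ numbered 3 to 5 for liver, 5 without liver replicate 3, and 8 to 20 for kidney, 20 without kidney replicate 1.

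Signs turned for 10 named miRNAs, all but cfa-miR-30b without a call, and the cause was not tested beyond the scaling itself. The log2 fold change of cfa-miR-186 was -0.0313 and became 0.0894 with DESeq2 size factors, 0.57 with library size alone, 0.13 with no filter, 0.0897 with the DESeq2 Wald test and 0.57 with the rank-sum test, and ran from -0.0891 to 0.0639 with 1 library left out. For cfa-miR-191 it was -0.0501 and became 0.0616 with DESeq2 size factors, 0.59 with library size alone, 0.12 with no filter, 0.0616 with the DESeq2 Wald test and 0.59 with the rank-sum test, and ran from -0.16 to 0.12 with 1 library left out. The log2 fold change of cfa-miR-193a was -0.61 and became 0.0963 with library size alone and 0.12 with the rank-sum test. For cfa-miR-30b it was -0.55 and became 0.0229 with library size alone and 0.0229 with the rank-sum test. The log2 fold change of cfa-miR-30e was -0.14 and became 0.49 with library size alone, 0.0307 with no filter and 0.49 with the rank-sum test, and ran from -0.22 to 0.0177 with 1 library left out. For hsa-miR-101-5p it was -0.48 and became 0.00134 with library size alone. The log2 fold change of hsa-miR-193a-3p was 0.32 and became -0.0494 with thinning. For hsa-miR-30c-1-3p it was -0.23 and became 0.36 with library size alone and 0.36 with the rank-sum test. The log2 fold change of hsa-miR-30d-3p was 0.0335 and became -0.0227 with all tissues in the fit and -0.065 with thinning, and ran from -0.0742 to 0.16 with 1 library left out. For hsa-miR-30e-5p it was -0.0321 and became 0.10 with DESeq2 size factors, 0.48 with library size alone, 0.12 with no filter, 0.10 with the DESeq2 Wald test and 0.48 with the rank-sum test, and ran from -0.10 to 0.0923 with 1 library left out. No paired analysis was possible because the labels carry no dog number, the sample titles being running numbers, and the replicate numbers are in accession order only. Depth limits the low end: a miRNA under about 3 reads per library cannot be compared, and 278 of the 528 detected miRNAs were not tested.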
